A study of Homo sapiens with 2 samples.

Results

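The respiratory chain was described through 51 of the 33538 annotated genes in the count matrix. They comprised the 13 protein-coding genes of the mitochondrial genome, whose names start with MT-, and 38 nuclear genes named NDUF with a subunit letter and number, together with NDUFAB1, which are named for complex I. These genes were chosen by name and not by a measured value, though earlier results of these data were known. The cells came from 1 culture of A549, an established lung adenocarcinoma line that carries Cas9 under an inducible promoter, and there was neither a second culture nor an untransduced sample. The protocols call the promoter doxycycline-inducible, whereas the design text names tamoxifen. A lentiviral pool of 120 gRNAs, of which 100 were directed against 25 genes and 20 were non-targeting, was delivered with 0.3 viral particles per cell, and after puromycin selection Cas9 was induced for 2 days and the culture was kept for 5 more days. A transcriptome library and a gRNA library were made from the same cDNA and share all 5744 cell barcodes. Every group of cells below therefore carries the same Cas9, selection and induction. Groups were set by the gRNA, by depth, by mitochondrial share or by cell cycle genes, and groups by gRNA can also differ in depth.

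Complex I, the NADH:ubiquinone oxidoreductase, is the entry point for electrons from NADH and the largest complex of the chain. It is assembled from subunits of both genomes: the MT-ND genes encode the core of its proton-pumping membrane arm, whereas the remaining core and all accessory subunits are encoded in the nucleus, translated in the cytosol and imported. The other mitochondrial mRNAs encode cytochrome b of complex III (MT-CYB), the catalytic core of cytochrome c oxidase, complex IV (MT-CO1, MT-CO2 and MT-CO3), and membrane subunits of ATP synthase, complex V (MT-ATP6 and MT-ATP8). Mitochondrial mRNAs are cut from long polycistronic transcripts of the circular genome, and most are polyadenylated. A549, like other tumor lines in glucose-rich medium, runs glycolysis beside respiration.

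A total of 210519208 UMIs was counted, the median cell having 34625 UMIs (range 513 to 161719), and 427 of the 5744 barcodes had fewer than 10000 UMIs. Of the epithelial markers, KRT8 and KRT18 had a UMI in 99.4% and 99.7% of the barcodes, CDH1 in 27.3% and EPCAM in 13.8%, and 92.3% of the barcodes had at least 3 of the 6. Of the fibroblast markers, COL1A1 had a UMI in 10.5% and LUM in 5.99% of the barcodes, but at least 3 of the 5 were seen in 1 barcode. No barcode had at least 3 of the immune and blood markers or of the endothelial ones. The highest of these were LYZ with 19 UMIs and CDH5 with 28 UMIs, and CD3E and CLDN5 had no UMI. Of the 14 targeted genes with at least 20 CPM (UMIs per 1000000 UMIs) in control cells, 12 were lower in their own pool of cells, with log2 ratios from -0.58 to 0.13 and a median of -0.22. Since there was 1 culture and cells are not replicates of it, no p-values are given, and all intervals cover counting error only.

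The mitochondrial genes lie close together on a genome of 16569 bases, 12 on the forward strand and MT-ND6 on the reverse strand. Shown here are the bases that belong to a pair of genes at once, because 2 of the 3 lowest mitochondrial counts come from genes in such a pair and UMIs read there cannot be told apart. The first stretch is chrM:8517-8582 and the second chrM:10750-10776, both of GRCh38 and on the forward strand. Capitals mark the 46 bases shared by MT-ATP8 and MT-ATP6 and the 7 bases shared by MT-ND4L and MT-ND4, and in both pairs the frames are carried on 1 mRNA.
MT-ATP8/MT-ATP6: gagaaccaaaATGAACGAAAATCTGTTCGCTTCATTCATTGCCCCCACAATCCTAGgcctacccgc
MT-ND4L/MT-ND4: acctactccaATGCTAAaactaatcgt
MT-ATP6 and MT-CO3 share 1 further base, and MT-ND5 and MT-ND6 meet with their ends at base 14148 and base 14149 on opposite strands.

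For the nuclear genes, promoters from 250 bases before to 50 bases after the RefSeq start (GRCh38.p14) were on hand for 32 of 38, with none for NDUFS5, NDUFB5, NDUFA4, NDUFB9 and NDUFC2 among others. They were searched on both strands for 4 motifs, of which none contains another, that are bound by factors linked to respiratory genes. The palindromic NRF1 motif was found in NDUFA8, across the start, and in NDUFB4, from base -159 to base -150, which is 6.25% of the promoters on hand against 1.24% of all 35116 promoters. CCGGAAGT, an ETS family motif, was found in NDUFA13 and NDUFS1, also 6.25%, against 4.14% of all promoters. AAGATGGCG, read by YY1, was found in 5, NDUFA6, NDUFA7, NDUFA9, NDUFS4 and NDUFS7, or 15.6% against 1.75%, and each time after the start. TCAAGGTCA, read by estrogen-related receptors, was found in none, against 0.353% of all promoters. In all, 9 promoters (28.1%) held at least 1 of the 4, compared with 7.08% of all promoters. A match describes these letters only, and binding was not measured. The stretches with the ETS motif are shown, with the motif in capitals, since they belong to a pair of subunits that differ in level. NDUFA13 is chr19:19516185-19516224 on the plus strand and NDUFS1 chr2:206159565-206159632 on the minus strand, where the motif lies on the other strand and so reads as its reverse complement.
NDUFA13: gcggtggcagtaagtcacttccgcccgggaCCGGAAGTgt
NDUFS1: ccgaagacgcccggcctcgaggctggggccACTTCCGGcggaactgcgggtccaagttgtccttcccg
NDUFA13 had 96.4 CPM and NDUFS1 35.3 CPM over all cells, and NDUFB4, with the NRF1 motif, had 301 CPM.

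Mitochondrial mRNAs took 12.3% of all UMIs (25792785) and the 38 nuclear genes 0.804% (1693063), a ratio of 15.2 to 1. Complex IV messages made up 56.9% of the mitochondrial UMIs, those of complex I 21.4% and those of complex V 12.6%. Set against the nuclear genes alone, the 7 MT-ND mRNAs gave 3.26 UMIs for each UMI of a nuclear complex I gene. UMIs of 3′ tags count molecules once and are not divided by gene length, and the CPM below is a level over all cells on that scale. Whether the tags captured the 13 mitochondrial mRNAs equally, MT-ND6 among them, was not tested.

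Among the complex IV mRNAs, MT-CO3 had 28697 CPM, MT-CO2 22260 CPM and MT-CO1 18766 CPM, ranking 2, 3 and 4 among all genes. MT-ATP6 followed with 15272 CPM and MT-CYB with 11181 CPM. The complex I messages covered a far wider range, with MT-ND4 at 10045 CPM, MT-ND1 at 6300 CPM, MT-ND3 at 5635 CPM and MT-ND2 at 2707 CPM. They ended in MT-ND5 at 998 CPM, MT-ND4L at 279 CPM and MT-ND6, the reverse-strand gene, at 267 CPM, although each of these proteins is present once in the complex. MT-ATP8 was lowest of the 13 with 115 CPM, so the mitochondrial levels spanned 251-fold. With no second culture, the order cannot be read against a spread between samples. What spread there is comes from control cells: 15 of the non-targeting gRNAs had 10 cells or more, and set against the other control cells the level of MT-ND6 differed by -0.48 to 0.32 on the log2 scale and that of MT-ND4L by -0.14 to 0.13. The neighbors MT-ND4L and MT-ND6 lay closer to each other than this spread.

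Nuclear complex I genes were measured at 8.43 to 716 CPM, with a median of 164 CPM, an 85.0-fold range. Its upper part overlapped the lower end of the mitochondrial counts, as the nuclear median lay above MT-ATP8 (115 CPM), which has no mRNA of its own. Of the 13 mitochondrial mRNAs, 10 lay above the highest nuclear gene, and 6 nuclear genes were above 400 CPM, 23 between 100 and 400 CPM and 9 under 100 CPM. The highest was NDUFA4 with 716 CPM, whose protein is named for complex I but was later found in complex IV, followed by NDUFS5 with 544 CPM, NDUFB2 with 467 CPM, NDUFB10 with 461 CPM, NDUFS6 with 426 CPM and NDUFB11 with 412 CPM. None of these 6 is a core subunit that carries electrons.

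The nuclear core subunits, which hold the flavin and the iron-sulfur clusters or form the ubiquinone pocket, were lower and uneven. NDUFS8 had 398 CPM and NDUFV2 had 198 CPM. NDUFV1, which binds NADH and FMN, had 156 CPM, and NDUFS7, beside the ubiquinone pocket, had 124 CPM. NDUFS3 had 112 CPM, and NDUFS1, the large iron-sulfur subunit, was the lowest of these core genes with 35.3 CPM. Each of them thus stood below NDUFA4, and NDUFS8 alone of them stood above 200 CPM.

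The accessory subunits gave most of the nuclear signal. The 13 NDUFA genes summed to 2399 CPM, the 11 NDUFB genes, of the membrane arm, to 2832 CPM and the 2 NDUFC genes to 338 CPM, against 1858 CPM for the 8 NDUFS and 425 CPM for the 3 NDUFV genes. NDUFAB1, a mitochondrial acyl carrier protein that is also a complex I subunit, had 190 CPM. Among the NDUFA genes, NDUFA1, NDUFA2 and NDUFA12 had 384, 257 and 218 CPM, NDUFA3, NDUFA6, NDUFA11 and NDUFA8 lay between 112 and 140 CPM, and NDUFA10, NDUFA13, NDUFA9 and NDUFA5 between 63.9 and 99.1 CPM. Of the NDUFB genes not yet given, NDUFB4, NDUFB7 and NDUFB9 had 301, 263 and 209 CPM, NDUFB1, NDUFB6, NDUFB8 and NDUFB3 lay between 130 and 185 CPM, and NDUFB5 had 60.3 CPM. NDUFC2 and NDUFC1 had 183 and 156 CPM, NDUFS4 94.7 CPM and NDUFV3 70.6 CPM. NDUFA7 was lowest with 8.43 CPM and 1774 UMIs, and was the single member below 20 CPM. Genes annotated over the same bases as NDUFA11, NDUFA13, NDUFA7 and NDUFB8 held between 0 and 222 UMIs.

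The other nuclear members of the chain overlapped the range of complex I and in part exceeded it. The 10 complex IV genes had a median of 507 CPM, from COX7A2 at 379 CPM to COX6B1 at 1023 CPM. The 9 complex III genes had a median of 321 CPM, from UQCRC2 at 109 CPM to UQCRQ at 581 CPM, and the 15 complex V genes 320 CPM, from ATP5PB at 98.3 CPM to ATP5F1E at 1088 CPM. The 4 complex II genes, which have no mitochondrial partner, had 30.7 (SDHD) to 87.4 CPM (SDHC), and CYCS, cytochrome c, had 196 CPM. Complex I thus had a lower median per gene than complexes III, IV and V and a higher one than complex II.

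Genes that build complex I or handle mitochondrial RNA were lower still. Of 16 assembly factors, which act on complex I without staying in it, 10 reached 20 CPM, with a median of 23.8 CPM and a range from NUBPL at 10.1 CPM to NDUFAF8 at 398 CPM. Of 15 genes for mitochondrial transcription and mRNA maturation, 8 reached 20 CPM, with a median of 22.6 CPM, from MTERF1 at 5.74 CPM to SLIRP, an mRNA-stabilizing partner of LRPPRC, at 222 CPM.

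Cells differed in how evenly they held the mitochondrial mRNAs. Over the 5317 cells with at least 10000 UMIs, MT-CO3 ran from 18327 CPM at the 5th percentile through a median of 29293 CPM to 42404 CPM at the 95th, a 2.31-fold span, and the 9 other abundant mRNAs spanned 2.08-fold to 3.21-fold. MT-ND6 ran from 58.1 through 225 to 704 CPM, a 12.1-fold span that MT-ATP8 alone came near (10.9-fold), and the top 1% of cells held 5.92% of its UMIs. MT-ND4L, of like level, spanned 4.98-fold, from 110 through 264 to 547 CPM, with 3.05% of its UMIs in the top 1% of cells. In cells thinned to 10000 UMIs the variance over the mean was 3.60 for MT-ND6 and 1.45 for MT-ND4L, both with a mean of 2.91 UMIs, compared with 1.09 as the median of the nuclear complex I genes. Over the 13 mitochondrial mRNAs, whose counts reach far higher, the median was 11.9. At the same count MT-ND6 was thus more uneven between cells than MT-ND4L. Its level also ran with the mitochondrial share of a cell: among cells with at least 10000 UMIs it was 230 CPM at a share of 8 to 12% (2328 cells), 272 CPM at 12 to 16% (2387 cells), 371 CPM at 16 to 20% (334 cells) and 809 CPM at 20 to 40% (88 cells). As a share of the mitochondrial UMIs it was 0.220%, 0.201%, 0.213% and 0.331% in these bands. Between shares of 8 and 20% it thus moved with the other mitochondrial mRNAs. Outside these bands it was 0.167% at 2 to 5% (13 cells), 0.279% at 5 to 8% (136 cells) and 0.436% over 40% (18 cells).

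The share of mitochondrial mRNAs was lower in deeper cells, whereas that of nuclear complex I genes was not. Ordered by total UMIs into deciles, cells had a median mitochondrial share of 14.1% in the shallowest decile, 12.1% in decile 6 and 11.2% in the deepest. The quartiles narrowed from 9.11 and 19.6% in the shallowest decile to 9.70 and 12.9% in the deepest. Since the share is part of the total that orders the cells, these values describe the libraries and the 2 quantities are not independent. The nuclear complex I genes, as a share of nuclear UMIs, had a median of 0.531% in the shallowest decile and of 0.912 to 0.939% in the other 9. As shares of all UMIs, the ratio of medians, deepest over shallowest decile, was 0.793 for mitochondrial mRNAs and 1.88 for complex I genes. On that scale the complex I medians were 0.815% in the deepest and 0.433% in the shallowest decile. Among cells with at least 10000 UMIs the ratios were 0.816 and 1.10, so most of the complex I difference lay in the shallow barcodes.

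Gene by gene, all 13 mitochondrial mRNAs were lower in the deepest cells, but not equally so. Between cells of 10000 to 20000 UMIs and the 122 cells with over 80000 UMIs, the log2 difference in CPM had a median of -0.58 over the 13, whereas 51.5% of the 4983 genes with at least 20 CPM were lower, with a median of -0.01. MT-ND6 differed most, from 500 to 148 CPM (-1.76), followed by MT-ATP8 (-1.16), MT-ND5 (-0.96) and MT-ND4L (-0.87). The complex IV mRNAs were split, with MT-CO3 at -0.65 and MT-CO2 at -0.13, and MT-ND3 and MT-ND4 were among the nearest to 0 (-0.19 and -0.25). Of the 38 nuclear genes, 7 were lower, and the median over the 38 was 0.16. NDUFA9 (-0.25) and NDUFA5 (-0.17) were among the 7, while NDUFS6 (0.48), NDUFB2 (0.43) and NDUFB8 (0.42) were furthest up.

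**Figure D1:**
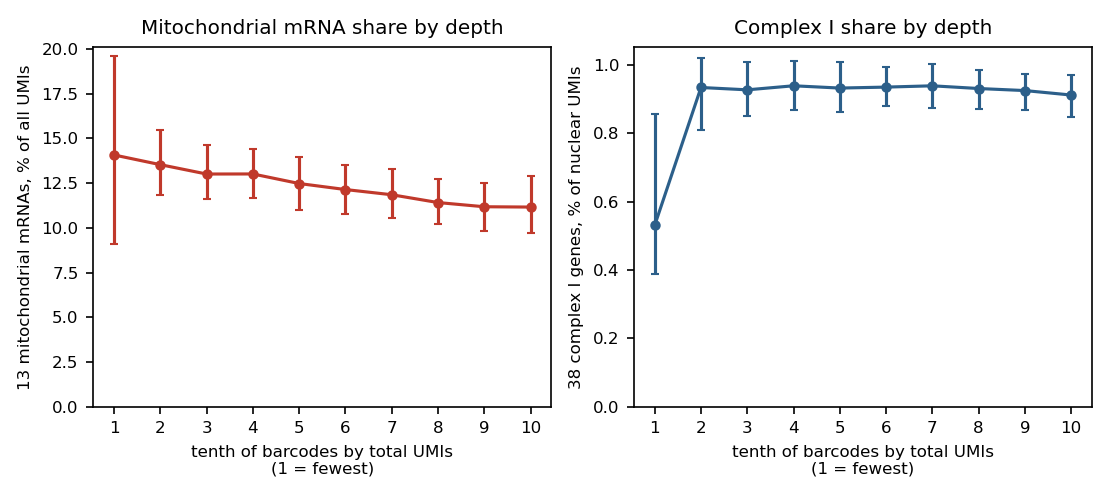
Share of UMIs per cell against depth, with cells ordered by total UMIs into deciles. One panel gives mitochondrial mRNAs as percent of all UMIs and the other nuclear complex I genes as percent of nuclear UMIs, with the median as points and the quartiles as bars. The mitochondrial medians go down from 14.1% to 11.2%, and the complex I medians stay between 0.912 and 0.939% after the first decile.

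Position in the cell cycle was set beside the same shares within 2 depth ranges. Among cells of 20000 to 40000 UMIs the median mitochondrial share was 12.99% in the quintile of cells with the lowest summed G2/M genes and 12.1% in the highest, and among cells of 40000 to 80000 UMIs it was 11.9% and 10.7%. The complex I share of nuclear UMIs was alike in these end quintiles, 0.915% and 0.922% in the shallower range and 0.899% and 0.901% in the deeper one, but was higher between them, up to 0.960% and 0.947%. By summed S phase genes it was 0.915% in the lowest and 0.957% in the highest quintile of the shallower range, and 0.903% and 0.939% in the deeper one. The quartiles of these quintiles overlapped in both ranges, as in 10.7 to 13.7% against 9.67 to 11.8% for the mitochondrial share in the deeper range.

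The shallow barcodes fell apart by their mitochondrial share, and complex I genes differed between them. Of the 427 barcodes under 10000 UMIs, 83 had under 2% mitochondrial UMIs, 285 had 5 to 40% and 46 had over 40%. The median complex I share of nuclear UMIs was 1.03% in the first, 0.446% in the second and 0.299% in the third, compared with 0.929% in the 5273 deeper cells with 5 to 40%. A gRNA with over 3 UMIs was found in 25.3% of the first, in 53.0% of the second, in 6.52% of the third and in 62.1% of deeper cells with 5 to 40%.

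In the 285 barcodes the nuclear complex I genes were lower as a group. Of 37 genes with at least 20 CPM, 33 were lower by a log2 ratio of 0.25 or more on the scale of nuclear UMIs and 1 was higher, whereas 35.9% of the 4970 nuclear genes were lower and 36.2% higher by this measure. The median was -1.03 for complex I genes and 0.02 for all. NDUFC2 had 50.1 CPM of nuclear UMIs in these barcodes and 209 CPM in deeper cells, a log2 ratio of -2.04 (95% interval -2.43 to -1.72, 67 UMIs). NDUFA13 had 26.9 and 111 CPM (36 UMIs in the 285 barcodes), and NDUFB8 was at -1.85 (-2.22 to -1.54, 72 UMIs). Among the core genes NDUFS7 was at -1.41 (-1.78 to -1.09) and NDUFV1 at -1.28, whereas NDUFS1 was at 0.43 (0.09 to 0.77, 73 UMIs). NDUFB1 at -0.09, NDUFA11 at 0.08 and NDUFV3 at 0.12 had intervals that held 0.

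The rest of the chain and the mitochondrial ribosome were also lower in these barcodes, by less at the median. The medians were -0.57 for complex II, -0.55 for complex III, -0.63 for complex IV, -0.75 for complex V and -0.78 for 72 mitochondrial ribosomal protein genes, of which 62 were lower. Cytosolic ribosomal protein genes had a median of 0.15, with 8 of 81 lower. The 6 epithelial markers summed to 4628 CPM of nuclear UMIs in the 285 barcodes and to 12841 CPM in deeper cells. The fibroblast markers summed to 10.5 and 6.98 CPM, with 3 of 5 at 0 in the 285 barcodes, the endothelial markers to 0.747 and 0.181 CPM, with 3 of 4 at 0, and the immune and blood markers, all 5 of which were at 0 in the 285 barcodes, to 0.148 CPM in deeper cells. The part of depth and of the lower epithelial marker level in these differences was not tested, and fewer transcripts per cell and fewer captured molecules cannot be told apart.

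The low complex I share did not end at 10000 UMIs. The share of cells with under 0.6% complex I UMIs, among those with 5 to 40% mitochondrial share, was 74.2% under 5000 UMIs, 80.0% at 5000 to 10000 UMIs, 42.9% at 10000 to 15000 UMIs, 20.4% at 15000 to 20000 UMIs and 2.54% at 20000 to 30000 UMIs. Of the 165 cells at 5000 to 10000 UMIs, 42 lay between 0.5 and 0.7%, near the limit of 0.6%.

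Barcodes with under 2% mitochondrial UMIs differed from this, whereas those with over 40% were similar for complex I genes. In the 83 with under 2% mitochondrial UMIs, 14 of 37 complex I genes were higher and 3 lower, with a median of 0.17, against 27.2% of all nuclear genes higher and 38.6% lower. Their epithelial markers summed to 13200 CPM, against 12841 CPM in deeper cells, but the single markers differed. KRT18 was higher (9461 against 8568 CPM). KRT8 (3203 against 3426 CPM), KRT19 (434 against 662 CPM) and AGR2 (102 against 168 CPM) were lower. EPCAM and CDH1, at 5.34 and 11.2 CPM in deeper cells, had no UMI. In the 46 with over 40%, 32 were lower and 1 higher, with a median of -0.92, against 42.2% and 43.2%. The lower level was not particular to complex I there: cytosolic ribosomal protein genes had a median of -1.53, with 79 of 81 lower, and complex V one of -1.09, with 15 of 15 lower.

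The mix of the mitochondrial mRNAs also differed between these barcodes, given here as log2 ratios of each gene's share of mitochondrial UMIs against deeper cells. In barcodes with under 2%, MT-ND6 was at 2.90 (2.42 to 3.34), from 41 UMIs, MT-ND4L at 1.99 (1.33 to 2.57), from 23 UMIs, and MT-ND5 at 1.48 (1.08 to 1.85), while MT-ND4 was at -0.53 and MT-CO1 at -0.50. In the 285 barcodes with 5 to 40%, MT-ND4L was at 0.94, MT-ATP8 at 0.82, MT-ND5 at 0.79 and MT-ND2 at 0.48, and MT-ND6 was at 0.27. In those with over 40%, MT-ND6 alone exceeded 1, at 1.42 (1.33 to 1.51), and MT-ND4L was at -0.34 and MT-ND5 at -0.19. MT-ND4L and MT-ND5 were thus highest in barcodes with under 2% and lowest in those with over 40%, whereas MT-ND6 was high at both ends of the mitochondrial share.

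**Figure D2:**
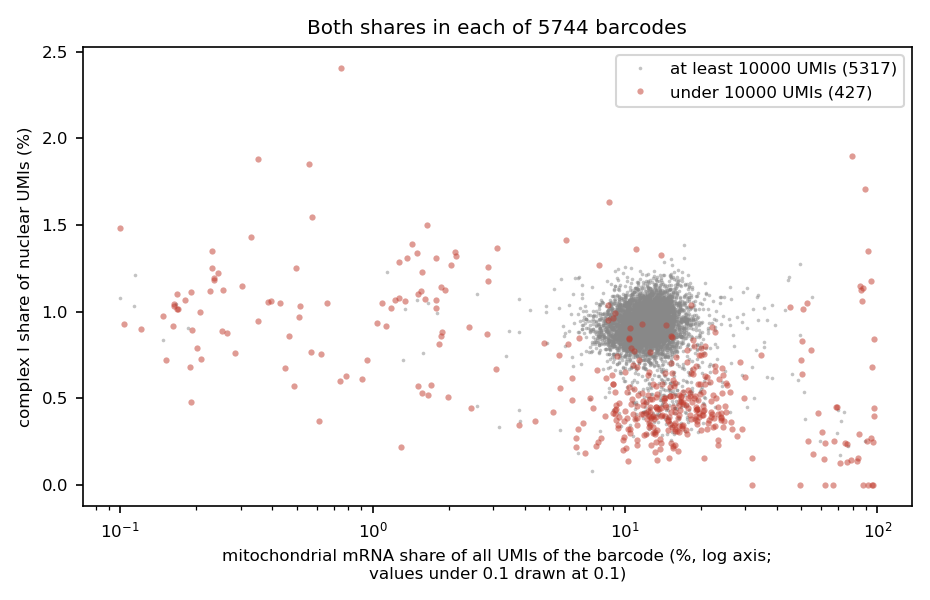
Each of the 5744 barcodes by its mitochondrial share in percent of all UMIs and its complex I share in percent of nuclear UMIs, with barcodes under 10000 UMIs set apart by color. Deeper cells form 1 cloud near 12.2% and 0.922%, and shallow barcodes spread to low mitochondrial shares, to shares over 40% and, at 5 to 40%, to complex I shares around 0.446%.

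Co-expression was described over the 5317 cells with at least 10000 UMIs, all from 1 library, each thinned to 10000 UMIs so that depth was equal, and with 427 barcodes left out. Pearson's r of log2(UMI + 1) had a median of 0.37 over the 78 pairs of mitochondrial mRNAs, with 43 pairs above 0.3, and of 0.04 over 630 pairs of the 36 nuclear complex I genes with a mean of at least 0.5 UMI, with none above 0.3. Over the 468 pairs across the 2 genomes the median was -0.04, with 26 pairs above 0. For comparison, it was 0.01 over 2890810 pairs of nuclear genes above the same mean, 0.28 among cytosolic ribosomal protein genes, 0.03 among mitochondrial ribosomal protein genes and 0.04 among the other nuclear genes of the chain. The mean UMI counts differed widely, from 0.593 for NDUFB5 to 300 for MT-CO3, and low counts hold r near 0. At a like mean of about 3 UMIs, MT-ND4L (2.91 UMIs) had a median r of 0.16 with the other mitochondrial mRNAs, and NDUFB4 (3.09 UMIs) of 0.05 with the other complex I genes. Their partners were not matched in count, those of MT-ND4L reaching 300 UMIs, so the effect of counts on r was not removed.

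Among the mitochondrial mRNAs, MT-CO1 and MT-CO2 gave the highest r, 0.86, followed by MT-ATP6 with MT-CYB at 0.81 and with MT-CO3 and MT-ND4 at 0.80 each. The genes with few UMIs gave the lowest, 0.08 for MT-CO2 with MT-ATP8 and with MT-ND4L. MT-ND5 had a median r of 0.33 with the other mitochondrial mRNAs, MT-ND6 0.21, MT-ND4L 0.16 and MT-ATP8 0.14, whereas MT-CO3 had 0.70 and MT-ND4 0.66. MT-ND4L and MT-ND6, with 2.91 UMIs each per thinned cell, thus had similar values. Without MT-ND6 the median over the pairs was 0.51, and in the 5185 cells with a mitochondrial share of 5 to 20% it was 0.23. The median over all cells thus depended on the cells outside that range.

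Among the nuclear genes, NDUFS5 with NDUFA4 gave the highest r, 0.18, followed by NDUFS5 with NDUFB10 and NDUFA4 with NDUFA12 at 0.15 each. NDUFA4, NDUFS5 and NDUFB10 are among the 4 nuclear genes with the highest counts, NDUFA12 is not, and NDUFV3, with 0.696 UMI, had a median of 0.00 with the others. NDUFB5 with NDUFA3 gave the lowest r, -0.03. Weak values of this kind in sparse counts are no finding on their own. Across genomes, MT-CO2 with NDUFB10 and MT-ND1 with NDUFB2 were lowest at -0.16 each.

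Summed over their members, mitochondrial and nuclear UMIs had r of -0.27 in all cells and -0.14 at a mitochondrial share of 5 to 20%. As thinning fixes the total, a cell with more UMIs of one kind has fewer of the others, and the median r of the summed mitochondrial mRNAs with 2418 genes was -0.05. When nuclear genes were thinned over nuclear UMIs alone, the median over cross-genome pairs was -0.01.

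**Figure D3:**
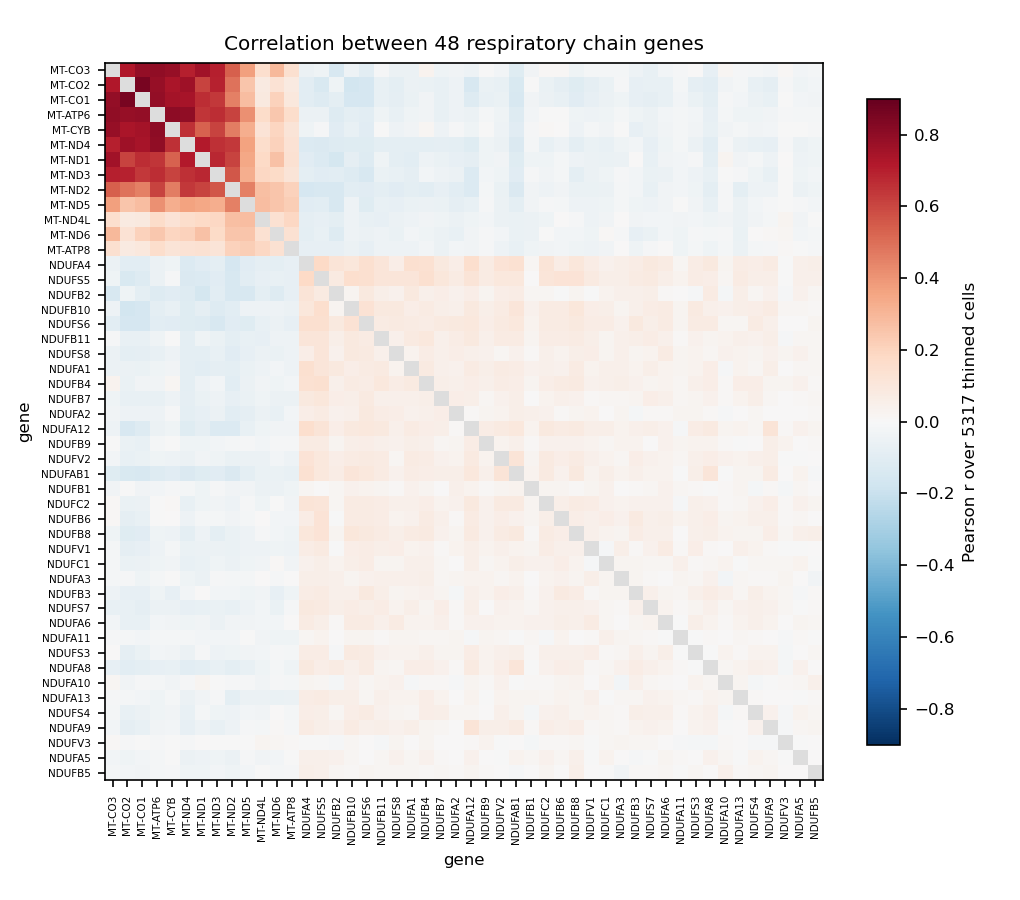
Pearson's r over 5317 thinned cells for each pair of the 13 mitochondrial mRNAs and 35 of the 36 nuclear complex I genes with a mean of at least 0.5 UMI. Color gives r, with the mitochondrial mRNAs first on both axes and each kind ordered by level. The block of abundant mitochondrial mRNAs stands out, with r up to 0.86, and the nuclear block reaches 0.18.

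Outside the 51 genes, and by r over the same 5317 cells, those most like the summed mitochondrial mRNAs were MTRNR2L12 (r of 0.29), the efflux transporter ABCC3 (0.24), MTRNR2L8 (0.20), VMP1 (0.20) and fibronectin, FN1 (0.15). MTRNR2L12 and MTRNR2L8 are near-identical nuclear copies of mitochondrial rRNA sequence, so their counts are uncertain. GAPDH, of glycolysis, was lowest (-0.32), followed by PFN1, an actin-binding protein, RPLP1, YBX1 and RPS2 (-0.26 each). The genes most like the summed complex I genes were PRDX1, a peroxiredoxin (0.51), GSTP1, a glutathione transferase (0.49), S100A11 (0.47), MYL6 (0.45) and PSMD8, of the proteasome (0.44), compared with a median of 0.05 over all genes. MTRNR2L12 (-0.26), the desaturase SCD and MTRNR2L8 (-0.19 each), PSAP and PAPPA (-0.16 each) were lowest. At a mitochondrial share of 5 to 20%, the same 5 genes led for complex I, with PRDX1 at 0.48, and ABCC3, EEF1A1, MTRNR2L12, FN1 and SOX4 led for the mitochondrial mRNAs. The lowest genes changed. They were HSP90AA1 (-0.30), H2AFZ, TUBB4B, YBX1 and TUBA1C for the mitochondrial mRNAs, without GAPDH. For complex I they were RPLP1 (-0.33), EEF1A1, RPL12, RPL28 and RPS19. The median r of mitochondrial mRNAs with cytosolic ribosomal protein genes was -0.11 over the 5317 cells and 0.00 in that range.

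The question of the screen, which transcripts differ in cells that carry a gRNA against a given gene, was put to the chain by pooling cells with exactly 1 gRNA above 3 UMIs. There were 3189 such cells, of which 696 carried a non-targeting gRNA (Non-Targeting, the control cells) and 2493 a targeting one, and 22 targets had at least 40 cells. The 286 cells with 2 or more gRNAs, which include doublets, were left out, and no other doublet call was made. Targets were chromatin and DNA methylation regulators in the main, and none was a member. Cells were not sorted for edited alleles, so each pool can hold unedited cells.

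Neither the mitochondrial nor the complex I share of any pool lay outside the range of the 15 control gRNAs, but single control gRNAs of few cells set the limits of that range. Control cells had 121308 CPM of mitochondrial mRNAs and 8050 CPM of complex I genes. The 22 pools ran from 116940 through a median of 122734 to 132206 CPM of mitochondrial mRNAs, and the 15 non-targeting gRNAs taken singly from 102944 through 120772 to 136277 CPM. For complex I genes the pools ran from 7744 through 8018 to 8394 CPM and those gRNAs from 7429 through 7972 to 8482 CPM. As log2 ratios against control cells, with 1 CPM added, pools ran from -0.05 to 0.12 for mitochondrial mRNAs, against -0.24 to 0.17 for single non-targeting gRNAs, and from -0.06 to 0.06 for complex I genes, against -0.12 to 0.08. The mitochondrial limits were those of CTRL00696 (16 cells) and CTRL00484 (30 cells), and the complex I limits those of CTRL00018 (15 cells) and CTRL00080 (33 cells). Without CTRL00484 the upper mitochondrial limit was 0.08, and RPL18 (0.13) and DHODH (0.08, above it before rounding) lay outside. Without CTRL00018 the lower complex I limit was -0.05 and UHRF1 lay outside, and without CTRL00080 the upper one was 0.05 and DNMT1 lay outside. The 5 control gRNAs with at least 40 cells, 51 to 134 cells each, spanned only -0.03 to 0.04 for mitochondrial mRNAs and -0.02 to 0.02 for complex I genes, and 10 and 11 of the 22 pools lay outside these narrower ranges. For the mitochondrial mRNAs 15 of 22 pools were above 0, and for complex I genes 10 of 22. Among cells with a mitochondrial share of 5 to 20% alone, RPL18 (0.15), DHODH (0.10) and SUV39H1 lay above the highest control gRNA (0.07).

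RPL18, which belongs to the large subunit of the cytosolic ribosome, gave the highest mitochondrial value, 0.12 (95% interval 0.12 to 0.13, 46 cells), beside -0.04 (-0.07 to -0.02) for complex I genes. The 2 gRNAs with at least 10 cells, gRNA2 and gRNA3, differed, at 0.25 (15 cells) and 0.05 (26 cells), and the pool stood at 0.06 without gRNA2 and at 0.24 without gRNA3, which is above the control range. For complex I genes these values were -0.03 and -0.07. As the mean over cells of the mitochondrial share the pool stood at 0.03. Its own mRNA was at -0.14 (-0.18 to -0.11). MT-CO1 had 21556 CPM in the pool and 18430 CPM in control cells (0.23), MT-ND3 6499 and 5607 CPM (0.21) and MT-CO2 25184 and 22044 CPM (0.19), all above every single non-targeting gRNA, while MT-CYB (-0.01) and MT-ND5 (-0.02) were not higher. The difference was therefore uneven over the 13, of which 10 were above 0.

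DHODH, an inner-membrane enzyme of pyrimidine synthesis that passes electrons to ubiquinone, was next for mitochondrial mRNAs with 0.08 (0.07 to 0.09, 44 cells) and stood at -0.01 (-0.04 to 0.02) for complex I genes. Its cells were shallower, with a median of 28110 UMIs against 33581.5 in control cells, and 15.9% of them had under 10000 UMIs against 6.61%. In the 37 DHODH cells with at least 10000 UMIs the mitochondrial value was also 0.08. Its own mRNA had 8.36 CPM in the pool and 15.3 CPM in control cells (-0.80, -1.89 to -0.02). Its gRNAs with at least 10 cells differed in sign for the summed mitochondrial mRNAs, gRNA2 at -0.04 (14 cells) and gRNA3 at 0.12 (14 cells). In the pool, all 13 mitochondrial mRNAs were above 0, from 0.00 for MT-ND4L to 0.17 for MT-CO1, and the sum was at 0.05 without gRNA3 and at 0.12 without gRNA2. As the mean over cells it was 0.02. MT-CO1 and, of the nuclear genes, NDUFB7 (0.24) lay above every control gRNA. MVD, an enzyme of the mevalonate pathway from which the side chain of ubiquinone is made, stood at 0.02 (0.01 to 0.02, 69 cells) and -0.03 (-0.05 to -0.01), but its own mRNA was not lower in the pool (0.22, -0.20 to 0.63). In MVD cells NDUFA3 (-0.19), NDUFS3 (-0.18), NDUFS5 (-0.14) and NDUFA7 (-0.59, 14 UMIs) were the furthest members, of which NDUFS5 lay below every control gRNA.

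The lowest mitochondrial values were those of HDAC1, a histone deacetylase (-0.05, -0.06 to -0.05, 115 cells), and of the checkpoint kinase CHEK1 (-0.05, -0.05 to -0.04, 173 cells). In both, MT-CYB was among the members furthest from 0, with 10280 CPM in HDAC1 cells (-0.10) and 9997 CPM in CHEK1 cells (-0.14), against 11036 CPM in control cells. The other members named by the rule in HDAC1 cells were NDUFAB1 (0.15), NDUFB10 (0.11) and MT-ND6 (0.10), and in CHEK1 cells NDUFA10 (0.23), NDUFB3 (0.15) and NDUFA7 (-0.57, from 38 UMIs). None of these lay outside the range of the control gRNAs. With each gRNA of the target left out in turn the sum lay between -0.08 (without gRNA2) and -0.03 (without gRNA4) for HDAC1, and between -0.05 and -0.01 (without gRNA3) for CHEK1.

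For complex I genes DNMT1, the maintenance DNA methyltransferase, was highest with 0.06 (0.04 to 0.08, 82 cells), followed by HDAC2 with 0.04 (0.03 to 0.06, 182 cells). UHRF1, the partner that recruits DNMT1 to hemimethylated DNA, was lowest with -0.06 (-0.08 to -0.03, 65 cells), followed by RPL18. The pools of these 2 partners thus stood at opposite ends, each inside the range of the 15 control gRNAs and outside that of the 5 with at least 40 cells. In DNMT1 cells NDUFS4, an accessory subunit near the NADH site, had 115 CPM against 93.9 CPM (0.30, 0.12 to 0.47), NDUFA5 was at 0.27 (0.05 to 0.48) and MT-ND6 at 0.25 (0.14 to 0.36), just under 0.25 before rounding. NDUFA4 (0.18) and NDUFA1 (0.14) were above every control gRNA in these cells, and NDUFA7 was at -0.20 from 20 UMIs. In UHRF1 cells NDUFA10 was at 0.25, and NDUFS7 (-0.23), NDUFB1 (-0.20) and NDUFB2 (-0.19) were below 0, the last below every control gRNA. With gRNAs called above 10 UMIs, the summed complex I genes of UHRF1 cells (-0.07) lay below the lowest control gRNA (-0.06). In HDAC2 cells MT-ND6 (0.16), NDUFS3 (0.15) and NDUFAB1 (0.13) were among the furthest members.

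**Figure D4:**
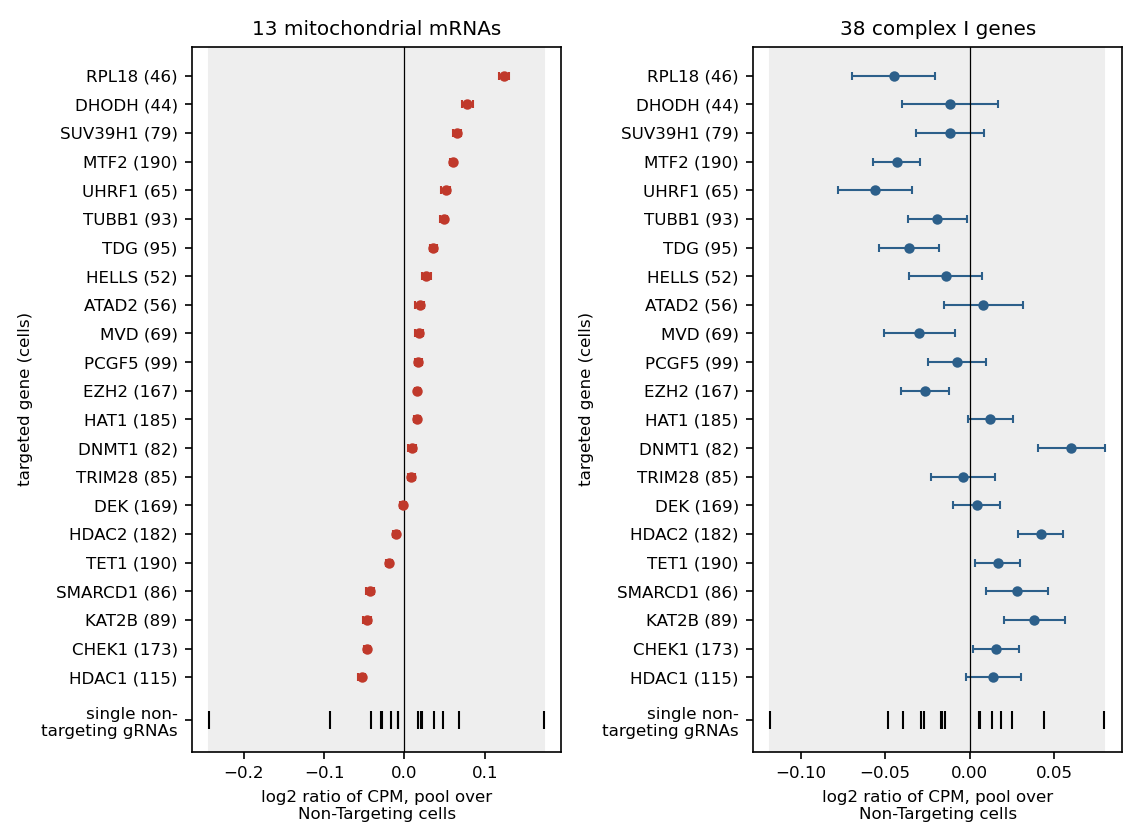
Log2 ratio of summed CPM against control cells for each of the 22 target pools, for mitochondrial mRNAs and for nuclear complex I genes. Points are pools, bars are 95% intervals of counting error, and the grey band is the range of the 15 control gRNAs, each drawn as a tick at the bottom. All pools lie within the bands, whose ends are set by control gRNAs of 15 to 33 cells, with RPL18 highest for mitochondrial mRNAs at 0.12 and DNMT1 highest for complex I genes at 0.06.

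Gene by gene, few members passed a log2 ratio of 0.25 in either direction. It was reached in 13 of 814 pairs of a nuclear complex I gene and a pool (1.60%) and in 0 of 286 pairs of a mitochondrial mRNA and a pool, whereas 11.5% of all pairs of a gene with at least 20 CPM and a pool reached it. As counting noise is larger in low genes, the share was also taken over genes with at least 100 CPM, where 6 of 638 pairs of the 29 complex I genes reached it, against 4.58% of all pairs. Of the 13 pairs, 5 fell on RPL18, where 33.0% of all genes passed this limit, 3 on DHODH (28.3% of genes) and 2 on DNMT1 (18.9%). HELLS (15.3%), UHRF1 (14.7%) and TUBB1 (11.4%) had 1 each. Most of these pairs, 10 of 13, thus fell on the 3 pools with the highest share of all genes past the limit. With 37 complex I genes tested per pool, their share lay below that of all genes in each of the 6. RPL18 and DHODH had 46 and 44 cells, and TET1, with 190 cells, had 3.01% of genes past the limit. The part of pool size and counting noise in these shares was not tested.

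Of these 13 pairs, 11 had an interval off 0 and 5 lay outside the range of the control gRNAs. Among the 5 were NDUFS4 in DNMT1 cells and, in RPL18 cells, NDUFV1 with 118 CPM against 159 CPM (-0.42, -0.63 to -0.23), NDUFA12 (-0.29, -0.45 to -0.13) and NDUFAB1 (-0.26, -0.43 to -0.09). The RPL18 pool as a whole was shifted down, with a median of -0.08 over all genes and of -0.07 over the complex I genes, so relative to the other genes of these cells the complex I genes were not lower. In DHODH cells NDUFS3 (-0.33), NDUFB6 (-0.28) and NDUFS1 (0.27) passed the limit, in HELLS cells NDUFB5 (-0.29), and in TUBB1 cells NDUFS1 (-0.31), all inside the range of the control gRNAs. NDUFS1, with 35.1 CPM in control cells, passed in 3 pools, once upward and in RPL18 (-0.26) and TUBB1 cells downward.

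Over the 22 pools the steadiest members were NDUFB4 (-0.06 to 0.11) and MT-CO3 (-0.07 to 0.11), and the least steady were NDUFV1 (-0.42 to 0.19) and NDUFS1 (-0.31 to 0.27). Of the mitochondrial mRNAs, MT-ND6 had the widest range (-0.24 to 0.25), followed by MT-ATP8 (-0.25 to 0.18) and MT-ND4L (-0.25 to 0.16), the 3 with the fewest UMIs. Single targeting gRNAs with at least 10 cells numbered 68, of which 1 lay outside the range of non-targeting gRNAs for mitochondrial mRNAs, the RPL18 gRNA with 15 cells, and 5 for complex I genes. Of these 5, a pair of gRNAs against HDAC1 lay on opposite sides, at -0.12 and 0.09, and the other 3 were directed against CHEK1 (0.08), DNMT1 (0.09) and TRMT112 (0.13, 10 cells).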

How the data were processed

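The deposited values are raw UMI counts of genes and gRNAs per cell barcode, without normalization, made by the authors with Cell Ranger 3.1.0 (per the matrix header) on GRCh38 (per the submitters' processing notes); the annotation release is not given in the sources used here. All 5744 barcodes were kept. Members and lists were chosen with earlier results of these data known. Cells were assigned to pools by exactly 1 gRNA above 3 UMIs, UMIs were summed per pool and expressed as CPM, and log2 ratios to control cells were taken after adding 1 CPM. Counts of genes past a log2 ratio were made over genes with at least 20 CPM. The 95% intervals are exact, for a ratio of counts, and cover counting error only. Shares in shallow barcodes were scaled to nuclear UMIs, since mitochondrial shares differ there. Correlations used cells thinned at random, with a fixed seed, to 10000 UMIs. Named in pools were the 4 members furthest from 0, with at least 50 UMIs in either pool, in the 2 highest and 2 lowest pools per genome; other named values were chosen after they were seen. Python 3.11.15, NumPy 2.4.6, SciPy 1.17.1, pandas 2.3.3, scikit-learn 1.9.0 and matplotlib 3.10.9 were used, and the pool ratios and thinned correlations were tested on simulated data. PRORP was not matched by this name and is not analysed here. For 1 nuclear complex I gene, single values are not reported here, while counts and sums include it.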

Additional observations from a re-analysis of the deposited data

How the results depend on the processing

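The ratio of the deepest to the shallowest decile was 0.793 for the mitochondrial share and became 0.737 with depth taken from other genes, 0.816 in cells with at least 10000 UMIs, 0.607 from summed UMIs and 0.846 at a mitochondrial share of 5 to 20%. For complex I genes, as a share of all UMIs, 1.88 became 1.10, 1.52 and 1.56 under the last 3. The median r among mitochondrial mRNAs (0.366) was 0.232 at a share of 5 to 20%, 0.257 as Spearman's rho, 0.499 in CP10K without thinning, 0.324 at 20000 UMIs, 0.409 with nuclear genes thinned apart and 0.510 without MT-ND6. CP10K gave 0.122 among complex I genes (0.0367) and -0.0934 across genomes (-0.0435), where thinning over nuclear UMIs gave -0.00804. In CP10K, depth is not equal between cells. Pools outside the range of single non-targeting gRNAs numbered 0 in both genomes, but 3 for mitochondrial mRNAs at a share of 5 to 20% (DHODH 0.10, RPL18 0.15 and SUV39H1, with the highest control at 0.07), 1 for complex I with gRNAs above 10 UMIs (UHRF1 at -0.07, lowest control -0.06), and 0 to 1 (mitochondrial, the 1 being RPL18 without gRNA3) and 0 to 0 (complex I) when each of 84 targeting gRNAs was left out in turn. With each of the 15 non-targeting gRNAs left out they numbered 0 to 2 (mitochondrial, RPL18 and DHODH without CTRL00484) and 0 to 1 (complex I, UHRF1 without CTRL00018 and DNMT1 without CTRL00080), and against the 5 larger controls (from 40 cells) 10 and 11. The 13 pairs past the fold became 30 as means over cells, 6 with 10 CPM added, 20 with genes from 5 CPM, 0 at a log2 ratio of 0.5, 12 to 19 without single targeting gRNAs and 12 to 17 without single non-targeting gRNAs. In barcodes under 10000 UMIs, 33 complex I genes lower became 31 to 33. Of 214 values of the named pools under alternatives, 173 stayed within the counting interval, 41 moved and 0 changed sign. The settings at a share of 5 to 20%, without MT-ND6, in shallow barcodes and for single or larger non-targeting gRNAs were chosen after seeing the data. No paired analysis was possible because there is 1 culture.

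The data hold 1 culture, so the spread between cultures is unknown, and single non-targeting gRNAs of 13 to 134 cells give the only spread. In shallow barcodes, depth and cell state cannot be told apart. UMIs of 3′ tags say nothing of protein or of assembled complex.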

Other observations

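Cells outside the comparison showed similar values. The 2269 cells without a gRNA above 3 UMIs had 123319 CPM of mitochondrial mRNAs and 8086 CPM of complex I genes, log2 ratios of 0.02 and 0.01 against control cells. The 286 cells with 2 or more gRNAs were at 0.01 and, for complex I genes, at -0.06, with 7699 CPM. The 3 targets with fewer than 40 cells were DNMT3A (20 cells), with 0.07 for mitochondrial mRNAs and -0.07 for complex I genes, DNMT3B (35 cells), with 0.08 and 0.03, and TRMT112 (27 cells), with 0.09 and 0.03. None of these lay outside the values of the 15 control gRNAs, of which 1 with 30 cells sets the upper mitochondrial limit (0.17).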
